A study of Rattus norvegicus with 6 samples.

Results

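The genes described here are 38 cell cycle and DNA replication genes, taken by symbol from the deposited count table of 22574 gene symbols. All 38 symbols were listed. They were divided into 26 genes of G1/S and replication and 12 genes of G2/M, and 37 of the 38 passed the filter on low counts. The cells were RASMCs, primary aortic smooth muscle cells isolated from male Sprague-Dawley rats into medium with fetal bovine serum, after removal of adventitia and endothelium. Whether serum was present during the challenge is not stated in the sources used here. In the H3CIT+dsDNA group (n = 3 libraries) the cells were challenged with citrullinated histone H3 (H3CIT, written CitH3 in the sample labels) at 0.03 μM and with 300 ng/ml of dsDNA, DNA in its double-stranded form. Both are constituents of extracellular traps. The control group (n = 3 libraries) received bovine serum albumin (BSA). The length of the challenge is not given in the sources used here, no genetic change is named for either group, and replicate wells of an in vitro experiment held cells of a single rat. P-values therefore measure the spread between wells, not between animals.

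A cell that leaves G1 typically uses cyclin D with CDK4 or CDK6 and then cyclin E with CDK2. These kinases free the E2F factors to transcribe the replication genes. Origins are licensed when CDC6 and CDT1 load the MCM helicase, and at the fork the RFC complex loads PCNA, the sliding clamp that holds DNA polymerases on the template. After replication, cyclin A and cyclin B with CDK1, the Aurora and Polo-like kinases and the spindle checkpoint carry the cell through mitosis. Smooth muscle cells of the healthy artery seldom divide, whereas in culture with serum, as in injured arteries, they re-enter the cycle.

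Library totals lay between 17573905 and 18742395 counts, and the tested members had from 100 to 7879 counts in a library. The members held between 0.216% and 0.246% of a library's counts. All 10 contractile smooth muscle markers listed for the check of cell identity were tested. Their summed level was 7365 to 7866 CPM (read counts scaled to a common, TMM-normalized library size) after H3CIT+dsDNA and 10033 to 10818 CPM in controls. In edgeR's quasi-likelihood test 4 of the 10 were lower and Myocd was higher, beside 33 lower and 244 higher of 12591 genes tested. The lower ones were Acta2 (mean 3115 CPM against 5025 CPM), Tagln (2032 against 2690), Cnn1 (140 against 417) and Smtn (55.8 against 64.3). Myh11, Lmod1, Cald1, Tpm2 and Synpo2 were not called. All challenged libraries lay above the controls in Cald1 and below them in Lmod1. Of 10 macrophage markers 5 were tested and none was called, with sums of 73.2 to 75.2 CPM and 73.9 to 77.0 CPM. Cd14 (921 to 994 counts) and Csf1r (296 to 374 counts) made up most of them, while Ptprc and Mrc1 had at most 1 count in any library. Of 10 endothelial markers 5 were tested and none was called, with sums of 62.4 to 67.6 CPM after H3CIT+dsDNA, all below the 67.9 to 70.1 CPM of controls. Egfl7 had 973 to 1102 counts and Cdh5 73 to 105, while Kdr, Emcn and Cldn5 had at most 1. Of 8 fibroblast markers 3 were tested and none was called, with sums of 23.2 to 26.5 CPM and 20.2 to 25.3 CPM. The part of these markers in the values below was not tested. In bulk RNA, a smaller share of cycling cells and less RNA per cycling cell cannot be told apart.

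After H3CIT+dsDNA, transcripts of the replication clamp Pcna and of the G1 kinase Cdk4 were higher, and no other member was called in either direction. Pcna was 2.67-fold and Cdk4 2.07-fold higher, both past an adjusted p-value of 0.05 in the edgeR fit over 12591 genes. Among all genes tested, 2.20% were called in either direction and 1.94% were higher, against 2 of the 37 members tested. The other 35 members had log2 fold changes between -0.29 and 0.29, and 31 of them were within 0.25 of 0. Of all 12591 genes tested, 10937 were within 0.25 of 0. The median log2 fold change was -0.057 over the 25 G1/S and replication genes tested and -0.042 over the 12 G2/M genes, beside -0.0013 over all genes tested.

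**Figure D1:**
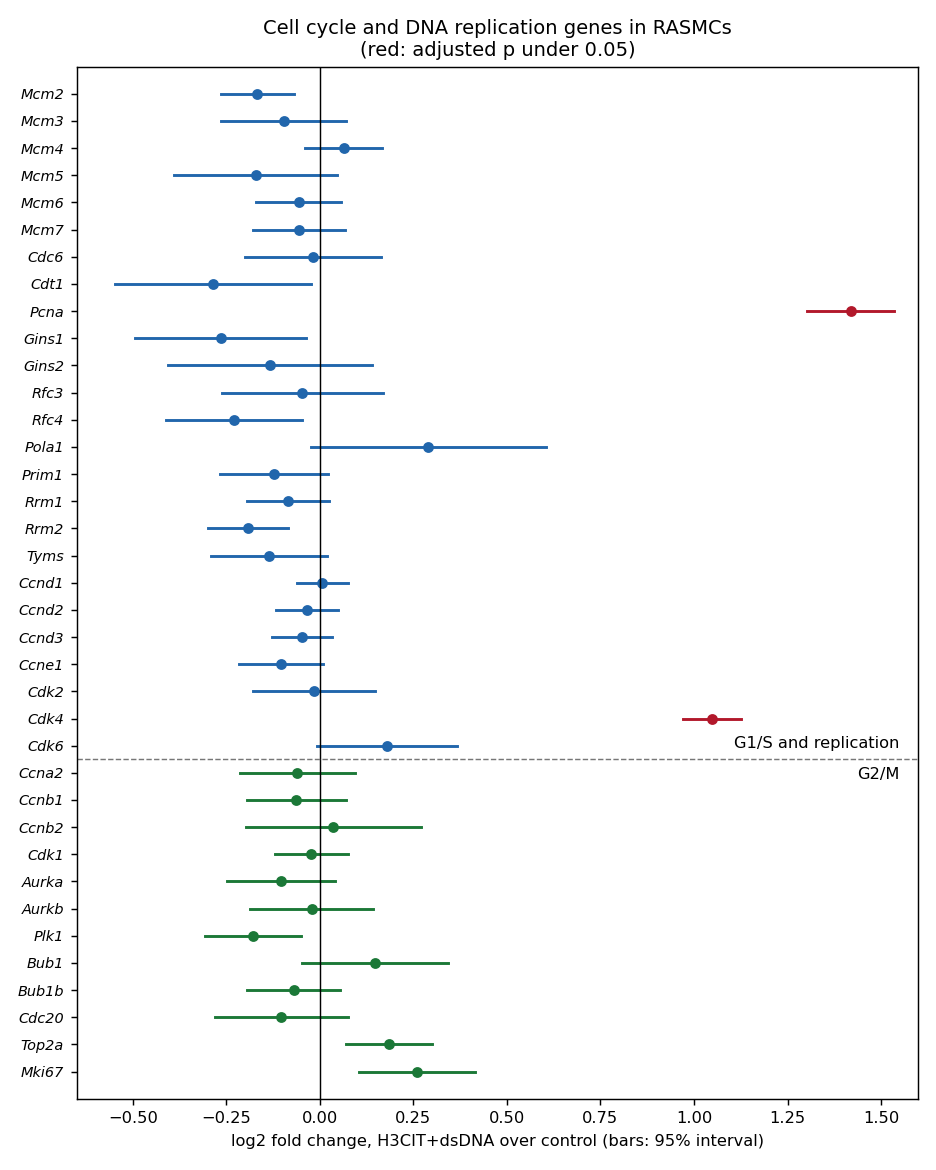
Log2 fold change of each of the 37 tested members, H3CIT+dsDNA over control (x axis), with bars for the 95% interval from the edgeR fit (n = 3 libraries a group). Pcna (1.42) and Cdk4 (1.05), in red, lie apart from the other 35 members, which fall between -0.29 and 0.29.

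Pcna encodes the sliding clamp of replication and repair polymerases. Its counts were 1658, 1681 and 1880 in the H3CIT+dsDNA libraries and 667, 666 and 656 in the controls. The lowest challenged library thus exceeded the highest control by far, and the groups did not overlap. Scaled levels of Pcna were 96.8 ± 6.18 CPM (SD, n = 3) against 36.2 ± 1.05 CPM (SD, n = 3). This gave a log2 fold change of 1.42 (standard error, SE, 0.054, edgeR adjusted p = 1.71e-09), and the 95% interval of the fold was 2.47 to 2.90. The unscaled control counts of Pcna spanned 11 counts, a coefficient of variation of 0.917%, where counting error alone at that level gives 3.88%. Of 9763 tested genes with a control mean of at least 100 counts, 2.84% had a coefficient of variation as low or lower. Among the challenged libraries the corresponding spread of Pcna was 7.02%.

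Cdk4 encodes the kinase that cyclin D activates in G1. It had 6600, 6720 and 6977 counts after H3CIT+dsDNA and 3200, 3363 and 3454 counts in controls, again with every challenged library above every control. Scaled levels of Cdk4 were 377 ± 11 CPM (SD, n = 3), against 182 ± 3.50 CPM (SD, n = 3). On the log2 scale Cdk4 was higher by 1.05 (SE 0.036, edgeR adjusted p = 6.05e-10), with a 95% interval of the fold from 1.96 to 2.18. When any 1 library was dropped, the estimate on the log2 scale stayed between 1.03 and 1.07 for Cdk4 and between 1.37 and 1.46 for Pcna.

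**Figure D2:**
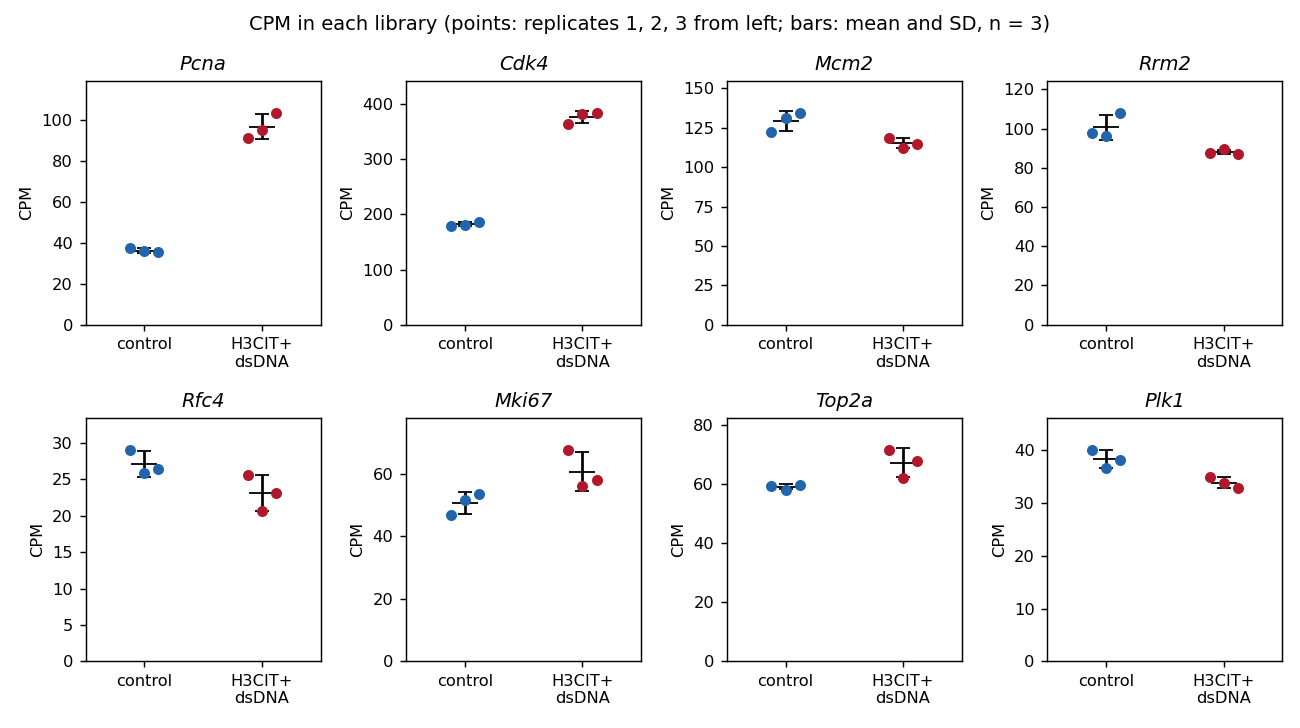
CPM of 8 members in each library (y axes from 0, separate scales), with points for replicates 1, 2 and 3 from left and bars for the mean and SD (n = 3). Pcna and Cdk4 show a wide gap between the groups, while the other 6 genes differ by less than 20% between group means.

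The values of both genes were set beside those of their partners within the same library. Pcna had 0.254 to 0.278 counts for each count of Mcm2 to Mcm7 together after H3CIT+dsDNA and 0.0854 to 0.101 in controls. Cdk4 had 0.846 to 0.928 counts for each count of Ccnd1, the gene of its partner cyclin D1, against 0.428 to 0.438 in controls. The ratio of Ccnd1 to the summed Mcm counts was 1.11 to 1.19 and 1.03 to 1.14, so that the groups overlapped. These ratios differ in gene length and can be compared between libraries only, not between genes.

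The genes next to Cdk4 and Pcna on their chromosomes were examined as well. In the later assembly GRCr8, the end of Cdk4 overlaps the end of Tspan31, which encodes a tetraspanin. Tspan31 had 3775, 3817 and 3724 counts against 3779, 3949 and 4020, a log2 fold change of -0.026 (SE 0.035, edgeR adjusted p = 0.802). Tmem230 and Cds2, which lie beside Pcna, had log2 fold changes of -0.0088 and 0.024 and were not called. GRCr8 also names 3 pseudogenes of Pcna and 4 of Cdk4, none of which is listed in the count table. Reads shared with such copies could be lost from the counts, and their part in both values was not tested.

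The promoters of both genes are shown beside those of Mcm2, a licensing gene, and Cdk1, the mitotic kinase, so that the letters counted in the next paragraph can be seen in their places. Each run is the 250 bases upstream of the transcription start, 5′ to 3′ on the gene's strand, from RefSeq on GRCr8. Pcna lies on the minus strand at chr3:139955821-139956070, Cdk4 on the plus strand at chr7:64771203-64771452, Mcm2 on the minus strand at chr4:122918095-122918344 and Cdk1 on the plus strand at chr20:19265043-19265292. Capitals mark E2F-like letters, CHR-like letters, CCAAT boxes and CACGTG on either strand.
Pcna: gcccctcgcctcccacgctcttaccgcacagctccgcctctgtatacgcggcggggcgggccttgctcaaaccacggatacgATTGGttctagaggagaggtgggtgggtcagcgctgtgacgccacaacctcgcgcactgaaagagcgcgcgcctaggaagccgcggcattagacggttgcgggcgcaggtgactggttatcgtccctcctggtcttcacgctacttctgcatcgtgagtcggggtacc
Cdk4: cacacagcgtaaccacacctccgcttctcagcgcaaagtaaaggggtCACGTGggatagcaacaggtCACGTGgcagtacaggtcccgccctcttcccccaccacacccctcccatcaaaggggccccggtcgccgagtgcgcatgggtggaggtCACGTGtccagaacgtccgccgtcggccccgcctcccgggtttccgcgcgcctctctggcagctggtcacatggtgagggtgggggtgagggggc
Mcm2: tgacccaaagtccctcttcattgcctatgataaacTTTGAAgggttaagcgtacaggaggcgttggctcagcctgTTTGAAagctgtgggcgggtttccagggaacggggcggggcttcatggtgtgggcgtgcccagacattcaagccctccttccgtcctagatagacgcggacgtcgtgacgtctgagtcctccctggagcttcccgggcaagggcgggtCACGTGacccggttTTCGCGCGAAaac
Cdk1: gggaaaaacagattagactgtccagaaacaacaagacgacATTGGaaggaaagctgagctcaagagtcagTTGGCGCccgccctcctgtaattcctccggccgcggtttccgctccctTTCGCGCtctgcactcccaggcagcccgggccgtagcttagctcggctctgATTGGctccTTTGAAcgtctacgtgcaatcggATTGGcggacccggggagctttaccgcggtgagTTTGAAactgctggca

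Promoter windows of 250 bases before to 50 after the start were at hand for 29 of the 38 members, 19 of G1/S and replication and 10 of G2/M. The E2F-like letters searched were TTCCCGC and also TTGGCGC and also TTGCCGC and also TTCGCGC, on both strands. They were in 14 of the 19 G1/S and replication windows (73.7%) and in 3 of the 10 G2/M windows (30.0%), beside 17.3% of the windows of 9336 tested genes and 10% of all 27457 windows. The windows of Pcna and Cdk4 held none, nor did those of Ccnd3, Ccne1 and Gins2. The CHR, an element found in many promoters of mitotic genes, was searched as TTTGAA and as TTCGAA. Its letters were in 7 of the 10 G2/M windows (70.0%) and in 4 of the 19 others (21.1%), beside 13.6% of tested genes and 19.5% of all windows. CCAAT, the letters that NF-Y binds, was in 13 of 19 and 7 of 10 windows, beside 37.9% of tested genes and 37.7% of all windows. Pcna held 1 CCAAT, starting 168 bases before the start on the reverse strand, and Cdk4 held none.
CACGTG, the E-box letters that MYC and USF factors can bind, was added after the Cdk4 window had been seen. It occurred 3 times in the Cdk4 window, beginning 203, 183 and 95 bases before the start, and in 2 of the 19 G1/S windows in all, the other being Mcm2, beside 9.50% of tested genes and 6.65% of all windows. Forms can overlap, as the pair in Mcm2 does, and a match, or the lack of one, describes these letters in this window only. Among G1/S genes with a window, the 14 with E2F-like letters had log2 fold changes from -0.29 to 0.29 with a median of -0.11 and no call, and the 5 without them held both called genes. The other 3 without them, Ccnd3, Ccne1 and Gins2, had a median of -0.10 and no call, close to the median of the 14.

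The partners of Cdk4 in G1 were nearly level between the groups. Ccnd1, the gene of cyclin D1, had 7806, 7447 and 7516 counts against 7480, 7746 and 7879. The libraries of both groups were interleaved, and the change was 0.480% with a 95% interval from -4.20% to 5.39% (edgeR adjusted p = 0.952). Ccnd2 and Ccnd3, which encode the other D cyclins, had log2 fold changes of -0.034 and -0.047, and their intervals went no lower than -8.45% and no higher than 3.43%. Cdk6, the second kinase of the D cyclins, had 355, 315 and 356 counts against 277, 299 and 348, a log2 fold change of 0.18 (SE 0.086, edgeR adjusted p = 0.380). H3CIT+dsDNA replicate 2 lay below control replicate 3, so the groups overlapped. Ccne1, which encodes cyclin E1, was at 43.5 ± 1.80 CPM against 46.8 ± 0.843 CPM (SD, n = 3 each), with all challenged libraries below all controls and an adjusted p of 0.398 in edgeR. Cdk2, the kinase of cyclin E, had a log2 fold change of -0.016. Ccne2, the gene of cyclin E2, had 1 count in the 6 libraries together and was not tested, so that a difference was not detectable.

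The genes that license origins gave small differences. Of the 8, 7 had a log2 fold change below 0, beside 6366 of all 12591 genes tested. None was called in edgeR, and 2 of the 8 had an unadjusted p-value under 0.05, beside 13.9% of all genes tested. Mcm2, which encodes a helicase subunit, had 2147, 1975 and 2087 counts after H3CIT+dsDNA and 2183, 2430 and 2497 in controls. Each challenged library lay below each control, at 115 ± 3.17 CPM against 129 ± 6.28 CPM (SD, n = 3 each). The log2 fold change of -0.17 (SE 0.045) had an adjusted p of 0.0868 in edgeR, which was 0.0378 with robust dispersion estimates and 0.0465 without control replicate 1. Over all alternatives it ranged from 0.0378 to 0.261. The other 5 helicase subunits, Mcm3 to Mcm7, overlapped between the groups, with log2 fold changes from -0.17 in Mcm5 to 0.064 in Mcm4. Cdt1, the loader that is destroyed once replication starts, had 155, 204 and 160 counts against 201, 230 and 215. Its log2 fold change was -0.29 (SE 0.12, edgeR adjusted p = 0.313), and H3CIT+dsDNA replicate 2 was level with the controls. Cdc6, the other loader, had a log2 fold change of -0.017.

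At the replication fork, Pcna differed in size from the genes around it. Rfc4, a subunit of the complex that loads PCNA, had 463, 364 and 420 counts against 519, 479 and 490, with no overlap between the groups. Its log2 fold change was -0.23 (SE 0.084, edgeR adjusted p = 0.234), and that of Rfc3, another loader subunit, was -0.047. Gins1 and Gins2, of the GINS complex that completes the helicase, had log2 fold changes of -0.27 and -0.13. The groups of Gins1, with 163, 173 and 204 counts against 203, 221 and 238, did not overlap once scaled for library size. Pola1, the catalytic subunit of polymerase alpha, had the largest positive value of the uncalled members, 0.29 (SE 0.14, edgeR adjusted p = 0.400), from 116, 144 and 149 counts against 117, 124 and 100. The groups of Pola1 overlapped through H3CIT+dsDNA replicate 1. Prim1, the primase subunit, had a log2 fold change of -0.12.

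The 3 genes of deoxynucleotide supply all had values below 0. Rrm2, the S-phase subunit of ribonucleotide reductase, had 1591, 1576 and 1582 counts after H3CIT+dsDNA and 1746, 1781 and 2005 in controls. The challenged libraries were close to each other and all below the controls, of which replicate 3 was the highest. The group difference came to -0.19 on the log2 scale (SE 0.049, edgeR adjusted p = 0.0727), or -12.4% with a 95% interval from -18.7% to -5.75%. Its adjusted p was 0.0486 with DESeq2, 0.0370 without the filter on low counts and 0.0259 under robust dispersion, within a range of 0.0259 to 0.259 over all alternatives. Rrm1, the large subunit, and Tyms, thymidylate synthase, had log2 fold changes of -0.085 and -0.14, and the groups of Tyms did not overlap.

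Over the 23 tested G1/S and replication genes other than Pcna and Cdk4, 19 had a log2 fold change below 0 and 4 above, with a median of -0.085. Of all 12591 genes tested, 6366 were below 0 and 6225 above. In 6 of the 23, or 26.1%, the challenged libraries all lay below the controls, beside 8.43% of all genes tested. These were Mcm2, Gins1, Rfc4, Rrm2, Tyms and Ccne1, and in none of the 23 did they all lie above. An unadjusted p-value under 0.05 was reached by 5 of the 23, or 21.7%, beside 13.9% of all genes tested. The 2 genes left out of these counts were chosen after their values were seen. The median departure of the 23 genes from their own mean over the libraries was -0.042, -0.060 and -0.013 in the H3CIT+dsDNA libraries and -0.0066, 0.029 and 0.085 in the controls, on the log2 CPM scale. Control replicate 3 was the highest, and control replicate 1 was close to H3CIT+dsDNA replicate 3. Without control replicate 3, the median over all 25 genes was -0.036, and without control replicate 1 it was -0.11.

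**Figure D3:**
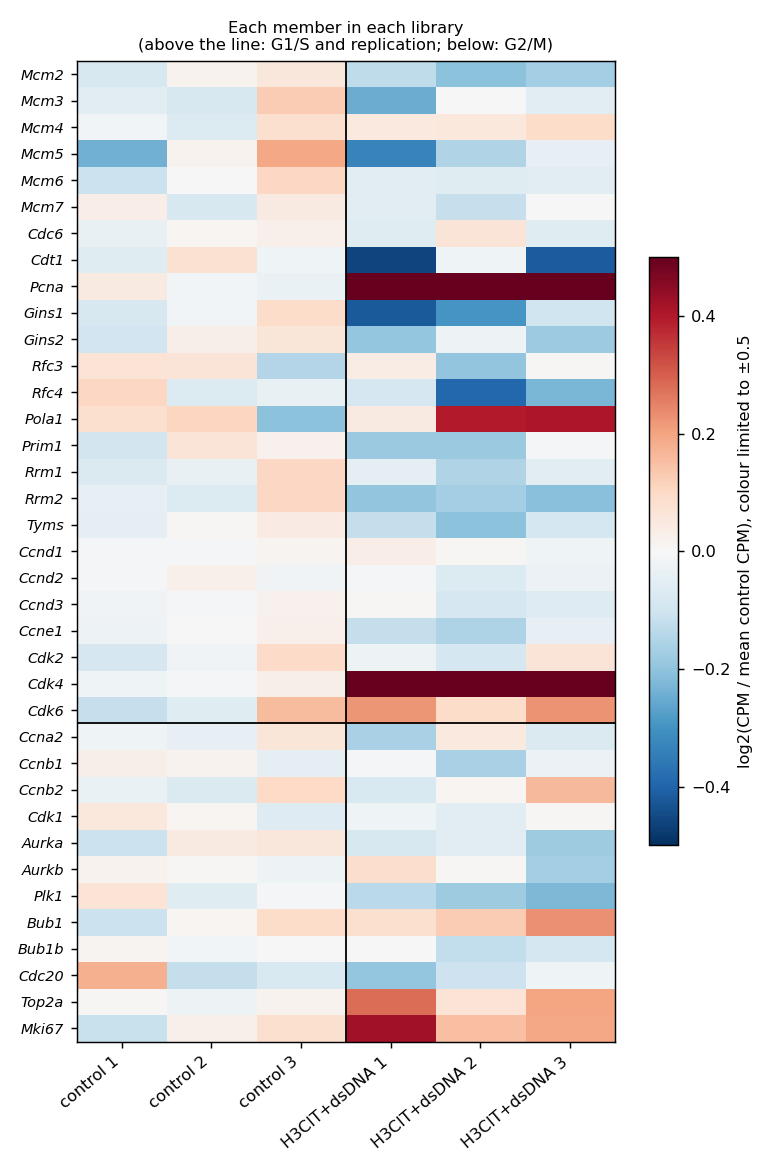
Log2 ratio of the CPM of each tested member (rows) to its mean control CPM, in the 6 libraries (columns), with colour limited to ±0.5. Pcna and Cdk4 are at the upper limit in every H3CIT+dsDNA library, while most other G1/S and replication genes are pale, with lower values in the challenged libraries of Rrm2, Mcm2 and Gins1.

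None of the 12 G2/M genes was called in edgeR, nor with DESeq2 or limma-voom, and 3 (25%) had an unadjusted p-value under 0.05, beside 13.9% of all genes tested. Mki67 and Top2a were above the controls and Plk1 below. Mki67, which encodes the proliferation antigen Ki-67, had 1230, 992 and 1053 counts after H3CIT+dsDNA and 838, 957 and 996 in controls. After scaling, every challenged library exceeded every control, at 60.7 ± 6.23 CPM against 50.7 ± 3.43 CPM (SD, n = 3 each). Mki67 had a log2 fold change of 0.26 (SE 0.071, edgeR adjusted p = 0.0975), and the adjusted p was 0.0451 with no filter on low counts, within a range of 0.0451 to 0.368. Without H3CIT+dsDNA replicate 1, the highest library, the log2 fold change of Mki67 was 0.17.

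Top2a, the topoisomerase that untangles sister chromatids, had 1298, 1091 and 1229 counts against 1058, 1076 and 1109. Its challenged libraries were all higher after scaling, with replicate 1 the highest, as for Mki67. The log2 fold change of Top2a was 0.19 (SE 0.053, edgeR adjusted p = 0.113), and 0.24 with an adjusted p of 0.0315 without H3CIT+dsDNA replicate 2. The groups did not overlap with the challenged libraries above in 2 of the 12 G2/M genes, beside 10.7% of all genes tested.

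The cyclins and the kinase of mitotic entry were close to level. Cdk1 had 1125, 1071 and 1150 counts against 1168, 1177 and 1119, a change of -1.56% with a 95% interval from -8.04% to 5.37%. Ccna2, the cyclin of S phase and G2, had 452, 509 and 482 counts against 491, 503 and 541, for a log2 fold change of -0.060 (edgeR adjusted p = 0.759). Ccnb1, a cyclin of mitosis, had 671, 585 and 661 counts against 676, 698 and 666, for a log2 fold change of -0.063 (edgeR adjusted p = 0.699). In each of these genes, and in Ccnb2 (0.036), the libraries of the groups overlapped.

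Among the kinases and the checkpoint, Plk1, a kinase of mitotic entry and exit, stood lowest. It had 632, 596 and 595 counts after H3CIT+dsDNA and 716, 681 and 706 in controls, with no overlap. For Plk1 the log2 fold change was -0.18 (SE 0.059, edgeR adjusted p = 0.178). Aurka, which acts at the spindle poles, had 566, 560 and 529 counts against 546, 632 and 637, for a log2 fold change of -0.10, with control replicate 1 among the challenged libraries. Bub1, a checkpoint kinase, had 229, 230 and 254 counts against 198, 223 and 236, for a log2 fold change of 0.15 (edgeR adjusted p = 0.507). Aurkb, Bub1b and Cdc20, the activator of the anaphase-promoting complex, had log2 fold changes of -0.022, -0.070 and -0.10, and their groups overlapped. The median departures of the 12 G2/M genes per library ran from -0.013 to 0.021 on the log2 CPM scale and did not order the libraries by group.

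**Figure D4:**
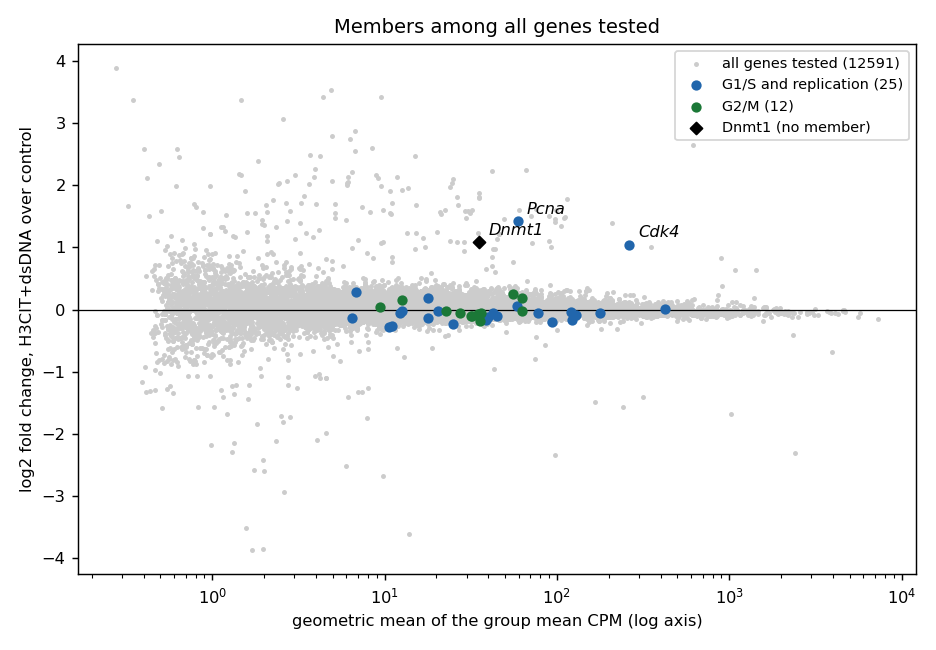
Log2 fold change (y axis) against the geometric mean of the group mean CPM (x axis, log scale) for 12591 genes tested, with the 25 G1/S and replication genes in blue and the 12 G2/M genes in green. Pcna, Cdk4 and Dnmt1, which is not a member, lie above the dense band of genes around 0 in which the other members fall.

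The replicates bound what could be seen. The median coefficient of variation of CPM over the tested members was 5.27% within the H3CIT+dsDNA group and 5.20% within controls, beside 4.49% and 4.63% over tested genes with a mean of at least 100 counts. The standard error of a member's log2 fold change had a median of 0.067. The 95% intervals of the uncalled members reached down to -0.55, in Cdt1, and up to 0.60, in Pola1, so larger changes lay outside the interval of each. In no tested member did the 3 counts of a group run consecutively. Such runs were rare, in 73 of all 12591 tested genes in controls and 60 after H3CIT+dsDNA, so their absence from 37 members says little.

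Other genes of the pathway, taken from lists of 45 replication and 55 G2/M genes, were seldom called. Of the 44 replication genes tested, 1 was higher and 1 lower, and of the 54 G2/M genes tested 1 was lower, beside 2.20% of all genes. Dnmt1, the maintenance DNA methyltransferase that acts on newly replicated DNA, had 936, 902 and 945 counts after H3CIT+dsDNA and 450, 443 and 442 in controls. The control counts of Dnmt1, like those of Pcna, varied less than counting error alone gives, with a coefficient of variation of 0.980% against 4.74%. The groups were far apart, and the log2 fold change was 1.09 (SE 0.054, edgeR adjusted p = 2.39e-08), called under all 15 alternatives. Pola2, the accessory subunit of polymerase alpha, had 617, 606 and 644 counts against 722, 765 and 790, for a log2 fold change of -0.26 (SE 0.054, edgeR adjusted p = 0.0231). The call of Pola2 was lost in 7 of 15 alternatives, where the adjusted p reached 0.116. Kif2c, a kinesin that depolymerizes microtubules at kinetochores, had 256, 255 and 258 counts against 311, 334 and 324, for a log2 fold change of -0.31 (SE 0.072, edgeR adjusted p = 0.0470), and lost its call in 12 of 15, with adjusted p up to 0.235. The median log2 fold change was -0.027 over the 44 replication genes and -0.024 over the 54 G2/M genes.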

How the data were processed

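RNA of RASMCs was measured in 6 libraries, 3 from the H3CIT+dsDNA group and 3 from the control group. The authors prepared stranded mRNA libraries, aligned them to the Rnor6.0 build by TopHat (version 2.1.1 in the submitters' processing notes, which also list Cufflinks and Cuffdiff), and deposited the raw HTSeq count of every gene. The strand setting of the counting and its handling of reads in overlapping genes are not given in the sources used here. Their effect on the counts of such genes was not tested. Doses were taken from the methods.

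After filterByExpr and TMM scaling, the groups were compared by edgeR (4.0.16, R 4.3.3) with its two-sided quasi-likelihood F test on the group term. P-values were adjusted by Benjamini-Hochberg across 12591 genes, and "called" means an adjusted value below 0.05. Standard errors are the log2 fold change over the square root of F, and intervals are 95%. Library totals of 17573905 to 18742395 counts set the precision. Intervals rest on the spread between the 3 libraries of a group, moderated by edgeR across the genes tested. With 3 against 3, an exact permutation test of 1 gene cannot give a p-value under 0.1, so none was run.

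The alternatives tried were other scalings (size factors of DESeq2, upper quartile, library size alone), other tools (DESeq2 1.42.0 and limma-voom, limma 3.58.1), other filters (none, or a minimum of 10 counts throughout), robust dispersion, a replicate block, each library left out in turn, and Ccna2 counted with G1/S. Leaving Pcna and Cdk4 out of a median was added after the values were seen. The members and gene lists were chosen with earlier results of these data known. All members are named, and per-library counts are given for called members, the 5 smallest p-values of each class and 9 genes of central role. Those of Cdt1, Gins1, Pola1 and Cdk6 were added after their values were seen. The main edgeR fit, the fit with a replicate block, DESeq2 and limma-voom were checked on simulated counts first. The other scalings and filters, robust dispersion and the fits with a library left out were not. Promoters and neighbouring genes came from RefSeq on GRCr8, a later build than the authors', and were used without converting coordinates.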

Additional observations from a re-analysis of the deposited data

How the results depend on the processing

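Pcna and Cdk4 kept their call and direction in all 15 alternative fits, with adjusted p-values up to 4.09e-07 for Pcna and 1.13e-07 for Cdk4. Of 555 values of the 37 tested members under alternatives, 548 kept their side of the threshold, 7 moved past it (Mcm2, Rrm2, Top2a and Mki67) and none of the called values changed sign. In 12 values of 7 uncalled members the sign changed, with log2 fold changes of at most 0.046 in size. The number of members called was 2, and 3 with DESeq2 (2 higher, 1 lower). It was 4 with no filter on low counts (3 higher, 1 lower) and 4 with robust dispersion estimates (2 higher, 2 lower). Of the G1/S and replication genes, 4 were called with robust dispersion, 3 with DESeq2 and 3 with no filter. Of the G2/M genes, 1 was called with no filter. With each library left out, 2 to 3 members, 2 to 3 G1/S and replication genes and 0 to 1 G2/M genes (Top2a, without H3CIT+dsDNA replicate 2) were called. The other replication genes called numbered 2, and 1 with each library left out. The other G2/M genes called numbered 1, and 0 with library size alone, DESeq2, limma-voom, no filter, at least 10 counts in every library, and with each library left out. Over all genes, 277 were called. Dropping 1 library gave 164 to 357, of which 164 came from the fit lacking H3CIT+dsDNA replicate 1 and 184 from that lacking control replicate 1. The 357 came from the fit lacking control replicate 3. Each of these fits has 5 libraries, and why the counts differ was not tested.

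The median log2 fold change of the G1/S and replication genes, -0.057, was -0.036 to -0.11 with each library left out and -0.085 without Pcna and Cdk4. That of the G2/M genes, -0.042, was -0.058 with upper-quartile scaling, -0.022 with library size alone, -0.023 with Ccna2 counted with G1/S, and -0.048 to -0.0099 with each library left out, nearest 0 without control replicate 1. No scaling moved the median of all genes beyond the range from -0.018 to 0.018.

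The replicate numbers did not pair the libraries. Correlations of deviations from group means, across genes, were -0.0458, 0.00452 and 0.0355. With a replicate block, 212 genes were called over all and 2 among the members, both G1/S genes, with 1 other replication gene and 0 other G2/M genes. Ccne2 had 1 count in all libraries together, and the reason was not tested.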
